A study of Mus musculus with 32 samples.

Results

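The 37 genes described here build or control the contacts between epithelial cells. They were chosen by name and are 37 of the 50600 genes in the count table. By role they were 8 desmosomal cadherins, 6 genes of the desmosomal plaque and Perp, 9 tight junction membrane proteins, 5 tight junction scaffold and polarity genes, Epcam, 2 epithelial splicing regulators and 6 epithelial transcription factors. Each was followed in 32 primary mouse melanomas, in 4 groups of 8. Of the 37, 35 had enough reads to be tested among 17717 genes. Dsg4 and Cldn7 did not.

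All tumours carried Tyr::NrasQ61K, a mutant NRAS oncogene under the melanocyte promoter of tyrosinase, Cdkn2a-/+, and floxed Cdh1 (Cdh1F/F), the gene of E-cadherin. Ecad tumours, male and female, are °/° in the labels at the place where ΔEcad tumours, male and female, carry Tyr::NRAS/°. There the methods of the study name Tyr::CreA/°, a Cre driven in the melanocyte lineage that deletes Cdh1, and the label was not settled here. Deletion is therefore limited to that lineage, and keratinocytes and stroma in the same piece of tissue keep Cdh1. The mice were on the C57BL/6J background. Their age is not given in the sources used here. RNA came from bulk tissue, and nothing in the labels says more than that the 8 tumours of a group are separate samples, so p-values measure the spread between tumours.

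Desmosomes rivet neighbouring epithelial cells together. Desmogleins and desmocollins cross the gap between cells, and plakoglobin (Jup), plakophilins and desmoplakin (Dsp) tie them to keratin filaments. Tight junctions seal the space near the cell apex with claudins, occludin (Ocln) and related membrane proteins held by scaffolds such as ZO-1 (Tjp1). Grainyhead-like (Grhl), Ovol and p63 (Trp63) transcription factors and the Esrp splicing regulators maintain the epithelial state. Keratins 5 and 14 (Krt5, Krt14) mark the basal keratinocytes of skin. Whether all Krt5 and Krt14 RNA in a melanoma sample came from epidermis was not tested.

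Cdh1 checked the genotype labels. In males Cdh1 had a lowest, median and highest level of 25.0, 144.6 and 281.9 TPM (an abundance adjusted for the length of the gene and the size of the library) in Ecad and 0.79, 3.29 and 65.2 TPM in ΔEcad tumours. In females the values were 2.16, 30.6 and 151.2 TPM in Ecad and 0.17, 46.7 and 143.3 TPM in ΔEcad tumours, so Cdh1 RNA did not separate the female libraries as labelled. For ΔEcad over Ecad, Cdh1 had a log2 fold change of -3.33 in males (SE 0.96, edgeR adjusted p 0.365) and of -0.00 in females (SE 0.87, edgeR adjusted p 0.999). With the Krt5/Krt14 level as a covariate the female value was -2.52 (SE 0.77, edgeR adjusted p 0.222).

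Several libraries stood apart. The library labelled ΔEcad male 2 had 0 counts over 4 Y-linked genes, against 1459 to 8800 in the other males, and 6.41 TPM of Xist, against at most 0.20 TPM. Females had 0 to 92 Y-linked counts and 8.55 to 253.2 TPM of Xist. The library was kept under its male label in the main comparisons below, and whether that label is wrong was not tested. ΔEcad male 7 had 31.6 TPM summed over 8 melanocytic genes, against 5780 TPM or more in the other tumours. Ecad female 3 had 10930 TPM over 10 markers of simple and secretory epithelium, mostly Bpifa2 (8313 TPM) and Smr3a (2552 TPM). ΔEcad female 8 had 1024 TPM, mostly Ltf (986.4 TPM). These sums thus rest mostly on the genes named. Other genes of the list were present too, such as Krt18 at 31.8 TPM in Ecad female 3 and Krt19 at 20.6 TPM in ΔEcad female 8. Not all were, as Muc5b was at 0 TPM in both and Krt19 at 0.03 TPM in Ecad female 3. ΔEcad male 5 followed with 771.8 TPM, mostly Aqp5 (768.0 TPM), and was not among the 4 left out together. Without it alone, 27 genes followed the keratins and 0 were called in the female genotype comparison. Without ΔEcad male 2, ΔEcad male 7, Ecad female 3 and ΔEcad female 8, a choice made after seeing the data, the main counts below were 29 in place of 28 genes for the keratin slope and 0 in place of 1 for the female genotype comparison. Total counts ranged from 24036333 to 63923086.

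The promoters of 6 genes are shown so that genes that moved together can be read beside genes that did not. RefSeq gave 300-base windows, 250 bases before and 50 after the start, for 18 of the 37 genes, 24 windows in all (build GRCm38.p6). Capitals mark CACCTG on either strand (CAGGTG when read on the shown strand), the E-box letters recognised by the Zeb and Snai repressors of epithelial genes. The first 3 genes followed Krt5 and Krt14 and the last 3 did not.
Dsp, chr13:38151044-38151343, plus strand: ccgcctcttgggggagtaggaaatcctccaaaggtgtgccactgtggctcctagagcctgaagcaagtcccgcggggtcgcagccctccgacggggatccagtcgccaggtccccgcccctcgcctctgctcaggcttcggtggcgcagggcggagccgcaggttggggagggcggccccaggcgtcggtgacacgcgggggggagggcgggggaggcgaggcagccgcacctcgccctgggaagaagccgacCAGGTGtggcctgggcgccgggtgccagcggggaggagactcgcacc
Cldn4, chr5:134946885-134947184, minus strand: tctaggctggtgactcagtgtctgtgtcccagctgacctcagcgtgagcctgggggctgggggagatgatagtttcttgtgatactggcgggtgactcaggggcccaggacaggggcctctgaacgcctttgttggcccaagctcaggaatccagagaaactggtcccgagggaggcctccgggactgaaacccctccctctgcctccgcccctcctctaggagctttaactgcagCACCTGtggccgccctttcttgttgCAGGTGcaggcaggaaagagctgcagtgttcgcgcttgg
Epcam, chr17:87635729-87636028, plus strand: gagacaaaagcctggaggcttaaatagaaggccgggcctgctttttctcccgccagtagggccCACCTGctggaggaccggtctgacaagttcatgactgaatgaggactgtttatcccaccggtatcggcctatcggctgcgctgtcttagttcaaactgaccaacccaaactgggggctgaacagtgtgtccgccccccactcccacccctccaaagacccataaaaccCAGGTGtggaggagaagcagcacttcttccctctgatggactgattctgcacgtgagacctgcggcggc
Tjp1, chr7:65371195-65371494, minus strand: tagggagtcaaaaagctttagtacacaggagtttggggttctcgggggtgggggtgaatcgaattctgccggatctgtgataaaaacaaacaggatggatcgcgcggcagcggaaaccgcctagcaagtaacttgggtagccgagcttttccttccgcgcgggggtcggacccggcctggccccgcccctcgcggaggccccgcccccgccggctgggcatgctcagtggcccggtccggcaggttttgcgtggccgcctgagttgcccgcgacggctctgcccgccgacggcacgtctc
Jup, chr11:100397741-100398040, minus strand: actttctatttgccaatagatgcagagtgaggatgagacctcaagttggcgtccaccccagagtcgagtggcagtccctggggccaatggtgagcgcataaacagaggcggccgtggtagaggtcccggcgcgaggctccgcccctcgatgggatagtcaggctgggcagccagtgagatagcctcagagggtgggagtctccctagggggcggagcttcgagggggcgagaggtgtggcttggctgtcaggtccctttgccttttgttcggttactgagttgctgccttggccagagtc
F11r, chr1:171437311-171437610, plus strand: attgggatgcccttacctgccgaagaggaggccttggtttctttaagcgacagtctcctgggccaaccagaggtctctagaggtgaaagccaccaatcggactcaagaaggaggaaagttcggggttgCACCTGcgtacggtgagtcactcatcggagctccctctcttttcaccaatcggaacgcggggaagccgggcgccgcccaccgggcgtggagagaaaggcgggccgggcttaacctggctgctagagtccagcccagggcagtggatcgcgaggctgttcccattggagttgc

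CACCTG was found in 16 of the 24 windows (66.7%), or in 12 of 18 genes, against 20.2% of all 32851 windows and 19.7% of 21262 windows of protein-coding genes. Cldn4, Epcam, Grhl3 and Pard6b held 2 matches each, and Crb3 held 4 in each of its 2 windows. Dsp held 1 match, 4 bases after the start. No match was in the windows of Tjp1, Jup, Cldn1, Cgn, Grhl1 and Ovol2, nor in 1 of the 2 windows of Cldn7. Cgn, Grhl1 and Ovol2 followed Krt5 and Krt14 all the same. F11r and Cldn3 did not follow, yet F11r had a match 122 bases before its start and Cldn3 had 1 match 32 bases after its start. The windows of Tjp1, Ovol2 and Crb3 lie inside the spans that GENCODE gives these genes. So does 1 of the 2 windows of Cldn7, of Grhl1 and of Tjp3. All of these stand for internal starts. The grainyhead letters AACCGGTT were in 0 of the 24 windows and 0.146% of all windows. TGANTCA, the AP-1 letters, was in 8.33% of the member windows and 7.81% of all. The Sp1 letters GGGCGGG were in 54.2% of the member windows, 25.6% of all and 33.9% of those of protein-coding genes. Each motif was searched on both strands. Matches are letters in a window and were not tested as binding sites. The 2 windows of Crb3, of Marveld2 and of Ocln overlap, so these windows are not independent.

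The first question was which genes followed Krt5 and Krt14 from tumour to tumour. The summed Krt5 and Krt14 level ran from 0 to 15230 TPM, and 5 tumours had 0. It was under 10 TPM in 12 tumours, at most 2.70 TPM, and 13.2 TPM or more in the other 20. The 12 were 1 Ecad male, 2 ΔEcad males, 6 Ecad females and 3 ΔEcad females. For each gene a slope was fitted, in log2 units of the gene per log2 unit of the Krt5/Krt14 level (the mean log2 CPM, counts scaled to library size, of Krt5 and Krt14), with a coefficient for each group. A gene followed Krt5/Krt14 where its slope was above 0 at an edgeR adjusted p under 0.05.

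Of the 35 genes tested, 28 followed and 0 had a slope called below 0. Among all genes, 6.05% were called above 0 and 2.06% below. The median slope of the 35 genes was 0.41, and that of all genes 0.00. Followers ranged from 0.14 to 0.90, and 12 had a slope over 0.5. The gene closest inside the threshold was Pard6b (edgeR adjusted p 0.0479) and the closest outside was Dsc2 (edgeR adjusted p 0.0523). In bulk tissue, fewer cells of a type and less RNA per cell cannot be told apart.

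**Figure D1:**
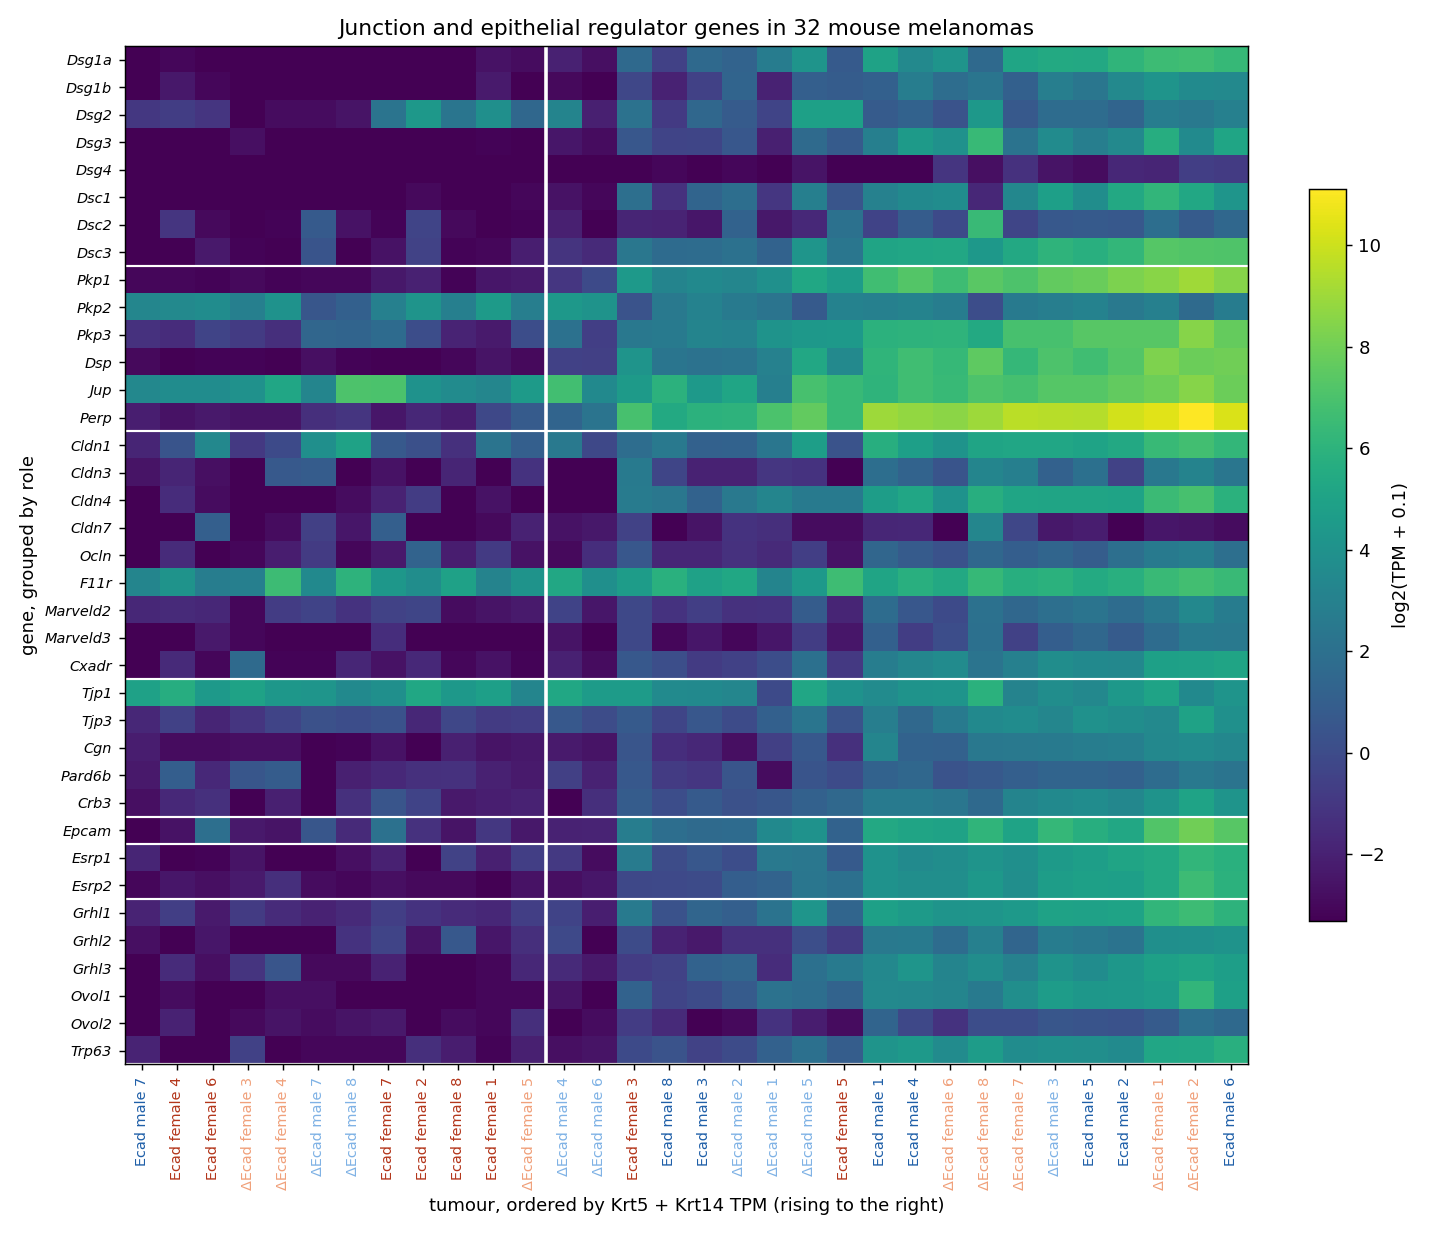
Level of each of the 37 genes as log2(TPM + 0.1), in rows grouped by role, in the 32 tumours ordered by Krt5 + Krt14 TPM, with tumour names coloured by group. The white vertical line separates the 12 tumours under 10 TPM, in which Tjp1, F11r, Jup and Pkp2 stay above 1 TPM in every tumour while most other rows are near the bottom of the scale.

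Over all 32 tumours desmosomal cadherins gave the steepest slopes. Of 7 tested, 6 followed, with a median slope of 0.69. Dsc1, a desmocollin of the upper epidermis, had a slope of 0.90 (SE 0.07, edgeR adjusted p 2.91e-11). Its lowest, median and highest levels were 0, 0 and 0.03 TPM in the 12 tumours with low Krt5/Krt14 and 0.02, 7.77 and 72.5 TPM in the other 20. Dsg1a, a desmoglein of differentiating epidermis, had a slope of 0.90 (SE 0.06, edgeR adjusted p 2.16e-13). Dsg1a was at most 0.06 TPM in the 12 tumours and reached 104.1 TPM in the others. The copies Dsg1a and Dsg1b share sequence, with 31.6% of the 50-base words of Dsg1a also found in Dsg1b, so the split of reads between them is uncertain. Dsg3, the basal desmoglein, had a slope of 0.74 and Dsc3 of 0.55. Dsg4, the desmoglein of hair, was at most 0.55 TPM in any tumour and had 0 counts in 20, a reading that allows up to 3 counts.

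Dsg2, the desmoglein of simple epithelia, was the flattest of the followers in this role, with a slope of 0.24 (SE 0.07, edgeR adjusted p 0.0262). The call was lost in the 20 tumours with 10 TPM or more of Krt5 and Krt14, where the slope was 0.13 (edgeR adjusted p 0.718). Dsg2 was at 0, 0.46 and 20.5 TPM (lowest, median, highest) in the 12 tumours and at 0.14, 3.01 and 29.3 TPM in the others. Its high tumours lay on both sides. Ecad female 2 had 20.5 TPM and Ecad female 1 had 14.7 TPM with almost no keratin, and Ecad female 5 had 29.3 TPM and ΔEcad male 5 had 29.1 TPM with much. Dsg2 exons overlap an antisense gene of at most 2.11 TPM. Dsc2, its desmocollin partner in simple epithelia, was not called (slope 0.29, SE 0.09) and stayed under 5 TPM in every tumour but ΔEcad female 8, where it was 86.9 TPM.

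In the desmosomal plaque some genes were near 0 in the 12 tumours and others were present throughout, with Pkp3 in between. Pkp1, the plakophilin of stratified epithelia, had a slope of 0.86 (SE 0.04, edgeR adjusted p 8.15e-18). It was at 0.01, 0.02 and 0.15 TPM in the 12 tumours and at 0.39, 99.4 and 524.8 TPM in the other 20. Dsp had a slope of 0.86 (SE 0.05) and rose from at most 0.07 TPM to between 0.57 and 325.1 TPM. Perp, a membrane protein of desmosomes and a target of p63, had a slope of 0.79 (SE 0.04) and went from 0.06 to 1.65 TPM in the 12 tumours to 2.45 to 2207 TPM in the others. Pkp1, Dsp and Perp were the 3 members whose 2 sets of tumours did not overlap, and 0.124% of all genes had that property. The sets were defined by Krt5 and Krt14, so this is a description. Pkp3 followed with a slope of 0.41 (SE 0.05). It ran from 0.11 to 3.23 TPM in the 12 tumours, with 3 at 1 TPM or more.

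Pkp2, the plakophilin known from heart and simple epithelia, was the flattest, with a slope of -0.05 (SE 0.03, edgeR adjusted p 0.369). Its levels were 1.35, 8.63 and 23.6 TPM in the 12 tumours and 0.95, 6.72 and 20.3 TPM in the others, 2 ranges that overlap almost fully. Jup, which serves both desmosomes and cadherin junctions, had a slope of 0.11 (SE 0.04, edgeR adjusted p 0.147). It was never under 7.37 TPM. Its median was 14.3 TPM in the 12 tumours and 106.0 TPM in the others. Among the 12, ΔEcad male 8 had 136.7 TPM and Ecad female 7 had 128.3 TPM, and the other 10 lay between 9.45 and 37.6 TPM.

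**Figure D2:**
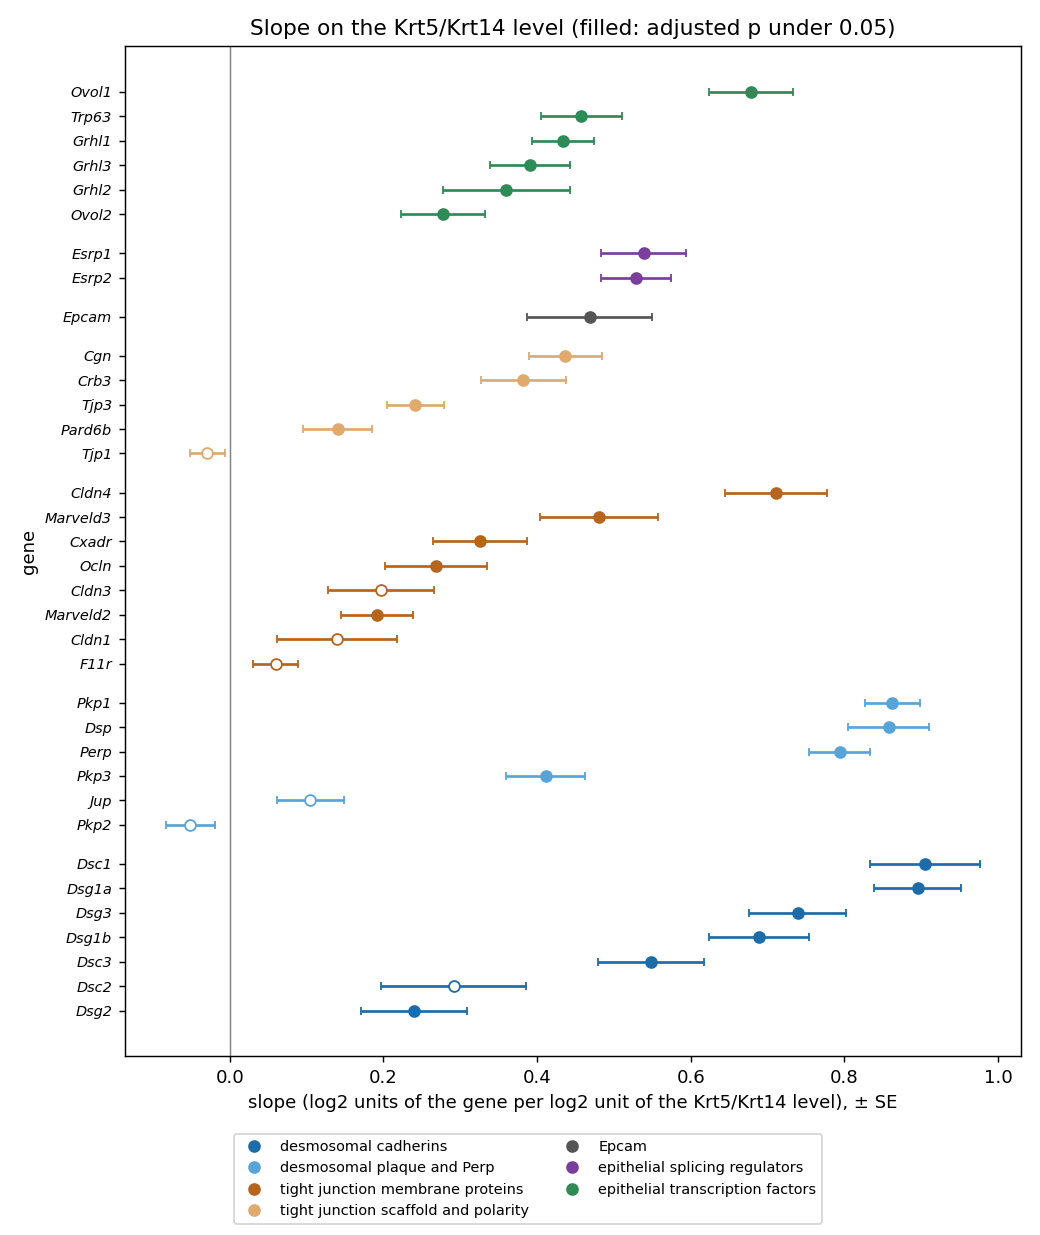
Slope of each of the 35 tested genes on the Krt5/Krt14 level, in log2 units per log2 unit, with its SE as a bar and colours for the roles. Filled points passed an edgeR adjusted p under 0.05; the 7 open points are Dsc2, Pkp2, Jup, Cldn1, Cldn3, F11r and Tjp1, between -0.05 and 0.29.

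Of 8 tight junction membrane genes tested, 5 followed, with a median slope of 0.23 over the role. Cldn4, a claudin of differentiating epithelium, was the steepest, at 0.71 (SE 0.07, edgeR adjusted p 1.04e-09). It was at most 0.49 TPM in the 12 tumours and had a median of 21.0 TPM and a highest value of 120.6 TPM in the others. Marveld3, Cxadr, Ocln and Marveld2 followed with slopes from 0.19 to 0.48. Cxadr, the coxsackievirus and adenovirus receptor, had a median of 0.04 TPM in the 12 tumours, but 3.08 TPM in ΔEcad female 3. Cxadr and Btg3 have overlapping exons on opposite strands, and since the strand setting of the counting is not stated its value is uncertain.

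F11r, the junctional adhesion molecule JAM-A, was the flattest, at 0.06 (SE 0.03, edgeR adjusted p 0.229). Its levels were 6.97, 14.9 and 95.3 TPM in the 12 tumours and 9.12, 48.9 and 105.7 TPM in the others. Cldn1, the main claudin of the epidermal barrier, had a slope of 0.14 (SE 0.08, edgeR adjusted p 0.299). It ranged from 0.18 to 32.1 TPM in the 12 tumours, with 8 at 1 TPM or more, and from 0.76 to 107.0 TPM in the others. Its median was 1.39 TPM in the 12 tumours and 27.9 TPM in the others. The highest of the 12 for Cldn1 was again ΔEcad male 8, which was also second for F11r, at 63.1 TPM. Cldn3 was not called (slope 0.20, SE 0.07) and was under 10 TPM everywhere. Cldn7 was at most 2.00 TPM in every tumour but ΔEcad female 8, where it was 9.77 TPM.

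Among scaffold and polarity genes 4 of 5 followed. Cgn, cingulin, was the steepest at 0.44 (SE 0.05, edgeR adjusted p 2.56e-08), with at most 0.14 TPM in the 12 tumours and up to 12.5 TPM in the others. Crb3, Tjp3 and Pard6b followed with slopes of 0.38, 0.24 and 0.14. Pard6b was called in only 8 of 32 fits with a tumour left out, and Crb3 and Tjp3 in 32. Crb3 overlaps Dennd1c, and Tjp3 overlaps Apba3, which reached 73.3 TPM, each on the opposite strand, so both are uncertain. Tjp1, the ZO-1 scaffold, did not follow, with a slope of -0.03 (SE 0.02, edgeR adjusted p 0.471). Tjp1 was at 9.44, 20.8 and 50.4 TPM in the 12 tumours and at 0.85, 16.5 and 60.3 TPM in the others. The single low value was ΔEcad male 1, and the next was 8.80 TPM.

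Epcam, an epithelial adhesion molecule, followed with a slope of 0.47 (SE 0.08, edgeR adjusted p 9.18e-05). Its median was 0.17 TPM in the 12 tumours and 32.1 TPM in the others, but Ecad female 7 and Ecad female 6 held 4.04 and 3.73 TPM with at most 0.07 TPM of keratin. The splicing regulators Esrp1 and Esrp2 followed with slopes of 0.54 (SE 0.05, edgeR adjusted p 6.38e-09) and 0.53 (SE 0.05, edgeR adjusted p 1.94e-10). Neither exceeded 0.61 TPM in any of the 12 tumours. In the others Esrp1 reached 72.9 TPM and Esrp2 93.9 TPM. Esrp2 overlaps Nfatc3 on the opposite strand.

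All 6 transcription factors followed. Ovol1, a factor of terminal differentiation, was the steepest, at 0.68 (SE 0.05, edgeR adjusted p 3.81e-11), and Ovol2 the flattest, at 0.28 (SE 0.05, edgeR adjusted p 0.000564). Trp63, the basal regulator, was at most 0.59 TPM in the 12 tumours and reached 54.2 TPM in the others. Grhl1, Grhl2 and Grhl3 had slopes of 0.43, 0.36 and 0.39. Of the 3, Grhl1 was the most abundant, with a median of 18.4 TPM in the 20 tumours, against 2.88 TPM for Grhl2 and 8.44 TPM for Grhl3. Grhl2 overlaps an antisense gene that reached 74.1 TPM and is uncertain. Grhl2 at 1.46 TPM in Ecad female 8 and Grhl3 at 1.32 TPM in ΔEcad female 4 were the only transcription factor values over 1 TPM among the 12.

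The second question was which genes were kept where Krt5 and Krt14 were nearly absent. Over the 12 tumours, 5 genes had a median of 1 TPM or more. They were Tjp1 (20.8 TPM), F11r (14.9 TPM), Jup (14.3 TPM), Pkp2 (8.63 TPM) and Cldn1 (1.39 TPM). Kept means present here, not unchanged. In the other 20 tumours the medians were 16.5 TPM for Tjp1 and 6.72 TPM for Pkp2. They were higher there for F11r (48.9 TPM), Jup (106.0 TPM) and Cldn1 (27.9 TPM). The next genes were Pkp3 (0.58 TPM), Tjp3 (0.56 TPM) and Dsg2 (0.46 TPM). None of the 5 was a follower in the main fit. Both readings rest on the same Krt5/Krt14 ordering of the tumours, so they are not independent. Tjp1, F11r, Jup and Pkp2 were at 1 TPM or more in 12 of 12 tumours. At the other end, 17 genes were under 1 TPM in each of the 12, among them Dsp, Pkp1, Cldn4, Cgn, Esrp1, Esrp2, Ovol1 and Trp63. The share of all genes that meets each of these rules was not computed. The counts therefore describe the members and do not say whether they are many or few.

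**Figure D3:**
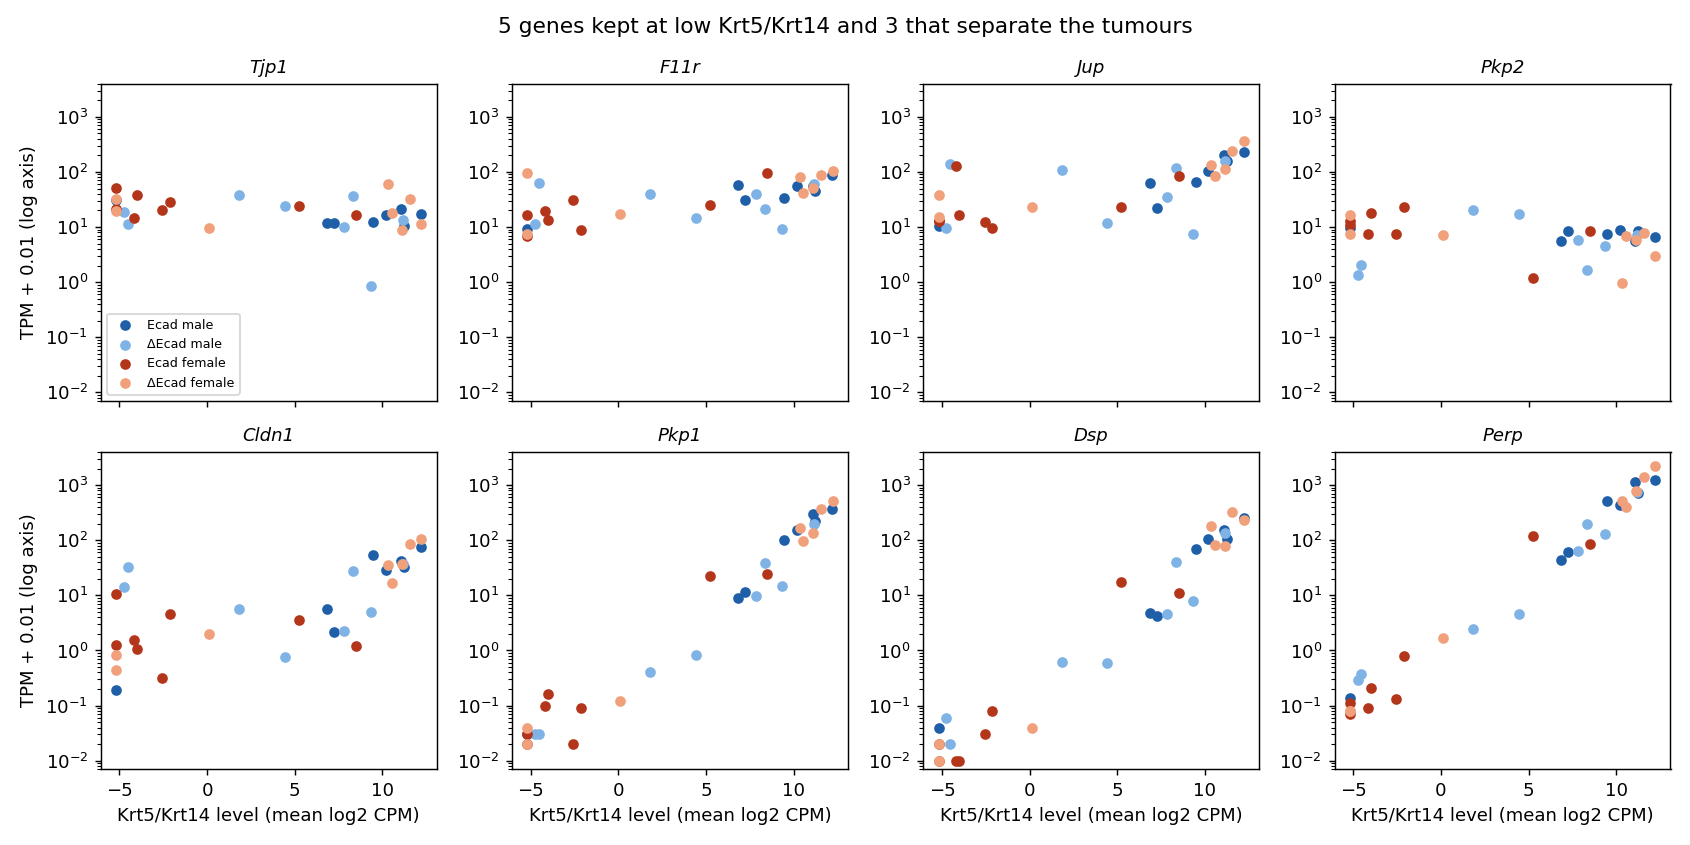
TPM + 0.01 on a log axis against the Krt5/Krt14 level (mean log2 CPM) in each of the 32 tumours, with points coloured by group. Tjp1, F11r, Jup, Pkp2 and Cldn1 have points across the whole keratin range, while Pkp1, Dsp and Perp lie at or under 1.65 TPM on the left and rise to the right.

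Marker genes of other cell types were read beside these levels. In the 12 tumours the 10 other keratinocyte genes summed to 6.81 to 314.4 TPM, against 19.3 to 40020 TPM in the other 20, and 10 of 10 followed Krt5/Krt14. No gene followed of 8 melanocytic, 6 endothelial, 5 fibroblast, 5 macrophage, 5 T cell and 4 skeletal muscle markers tested, while 2 of 4 Schwann and 2 of 7 simple epithelial markers did. ΔEcad female 3 had the lowest endothelial and macrophage sums of all 32 tumours, 8.57 and 11.5 TPM, with 0 TPM of Krt5 and Krt14, and its fibroblast sum was the highest, at 6348 TPM. That tumour held 32.3 TPM of Tjp1, 15.5 of Jup, 7.49 of F11r and 7.46 of Pkp2, but 0.43 of Cldn1. ΔEcad male 7, with its 31.6 TPM of melanocytic genes, held 18.4 TPM of Tjp1, 14.4 of Cldn1, 11.5 of F11r, 9.45 of Jup and 1.35 of Pkp2, the lowest Pkp2 value of the 12. The part of other cells in the remaining values was not tested.

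The slopes did not rest only on the gap between the 2 sets. Within the 20 tumours with 10 TPM or more, 24 of 37 genes followed, against 4.27% of all genes, and none was called below 0, against 0.449%. All 24 were among the 28. Dsg2, Marveld2, Pard6b and Grhl2 were the 4 no longer called. Slopes there were 1.05 (SE 0.08) for Esrp2, 1.00 (SE 0.13) for Ovol1, 0.96 (SE 0.13) for Epcam and 0.96 (SE 0.09) for Pkp1. Over all 32 tumours the slopes of these genes were 0.53, 0.68, 0.47 and 0.86. The order of steep and flat genes therefore depended on the tumours used. Within the 20 tumours Tjp1 and Pkp2 had slopes of -0.15 (SE 0.09, edgeR adjusted p 0.404) and -0.12 (SE 0.10, edgeR adjusted p 0.577). Within the 12 tumours under 10 TPM no member of 28 tested was called, nor any gene, in the same fit (6 members had an unadjusted edgeR p under 0.05). The keratin level of these 12 rests on few counts, so this fit cannot decide whether genes follow it there.

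Flatness depended on the tool for part of the genes. DESeq2 called 32 genes, the 28 and Dsc2, Jup, Cldn1 and Cldn3, against 10.5% of all genes above 0 and 3.73% below. With the level of 10 other keratinocyte genes in place of Krt5 and Krt14, 28 genes followed, against 8.43% of all genes above 0 and 4.7% below, and 27 of them were shared, with Cldn3 added and Dsg2 lost. Pkp2 and Tjp1 passed in 0 of 17 other settings and in none of the 32 fits with a tumour left out. Jup, Cldn1 and F11r passed in 5, 5 and 4 of the 17 settings, always above 0. With limma on log2(TPM + 0.1) the slopes were 0.15 for Jup (limma adjusted p 0.0125), 0.23 for Cldn1 (limma adjusted p 0.00721) and 0.10 for F11r (limma adjusted p 0.0218). A slope that missed the threshold in edgeR does not show that these 3 genes are independent of Krt5 and Krt14.

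The families changed their composition with the keratins. Of the 12 tumours, 5 had 1 TPM or more of summed desmogleins, and Dsg2 made 98.5% to 100% of it. In 19 of the other 20 tumours Dsg2 had a median share of 5.92%, Dsg1a of 46.5% and Dsg3 of 15.5%. The Dsg2 share ran from 2.55% to 97.2% in these 19. It was highest in ΔEcad male 4, then 85.4% in Ecad female 5 and 56.1% in ΔEcad male 5. Among plakophilins, Pkp2 had a median share of 94.5% in the 12 tumours and of 3.99% in the others, where Pkp1 had 58.3% and Pkp3 34.5%. In those others the Pkp2 share still ran from 0.343% to 92.6%. The 2 tumours of the 12 in which Pkp3 exceeded Pkp2 were ΔEcad male 7 and ΔEcad male 8, with Pkp3 at 2.62 and 2.40 TPM. Desmocollins reached 1 TPM in only 2 of the 12 tumours. Dsc3 had a median share of 72.3% in the 18 others that reached it. Of the 4 claudins, Cldn1 had a median share of 79.7% in the 9 tumours of the 12 with 1 TPM or more, and Cldn4 had 0.318%. Cldn4 and Cldn1 had 47.2% and 46.3% in the others.

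**Figure D4:**
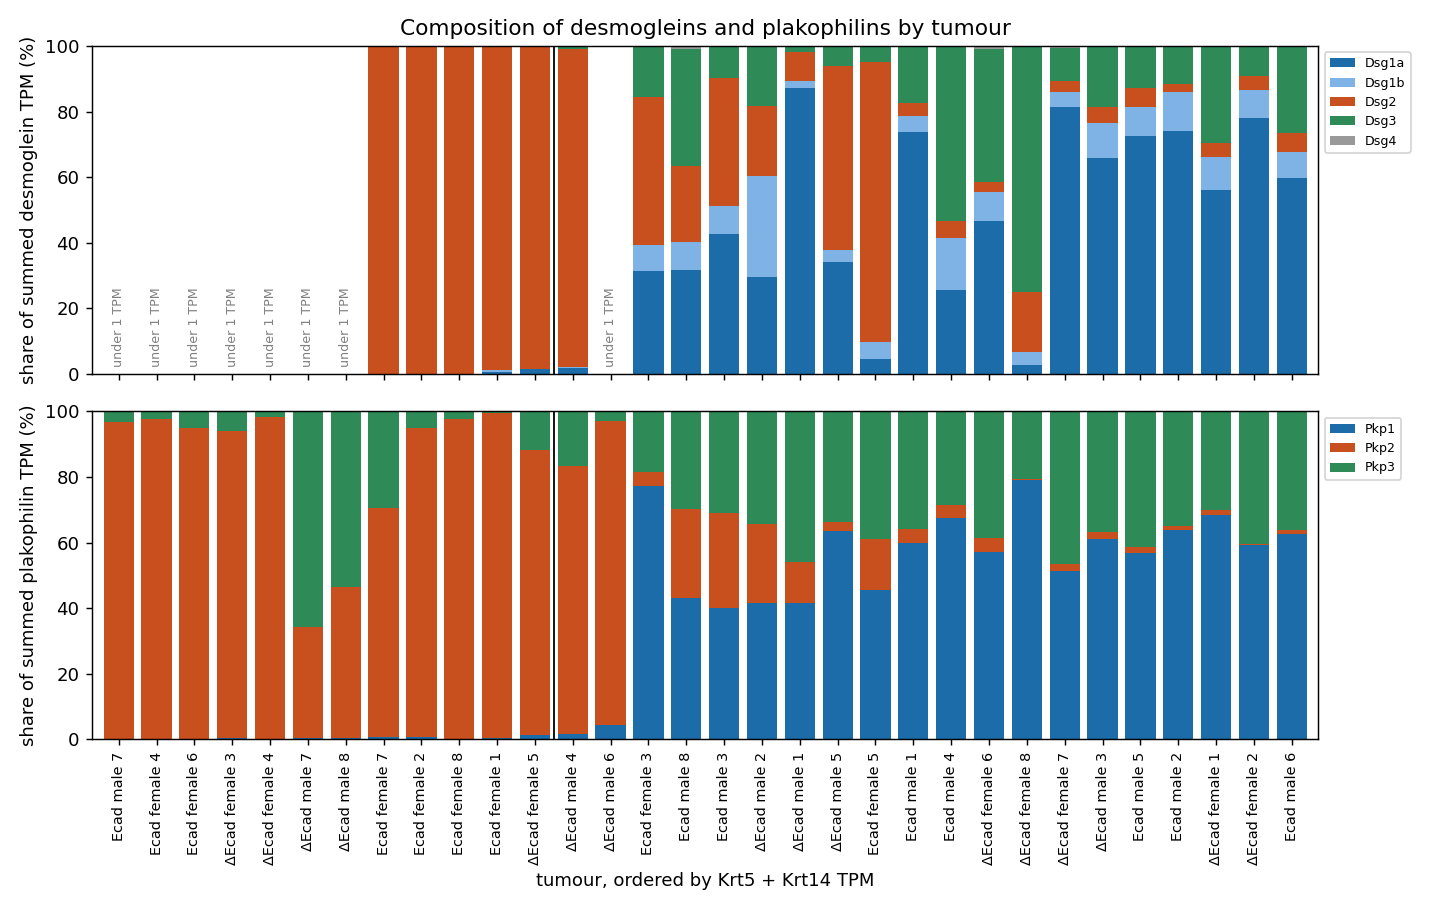
Share of each desmoglein (top) and plakophilin (bottom) in the summed TPM of its family, as stacked bars in percent for each tumour ordered by Krt5 + Krt14 TPM, with no bar where the family summed to under 1 TPM. Left of the black line Dsg2 makes 98.5% or more of the desmogleins and Pkp2 has a median share of 94.5%; right of it Dsg1a, Dsg3, Pkp1 and Pkp3 appear.

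ΔEcad female 8 had a pattern of its own. It held 86.9 TPM of Dsc2, 86.0 of Dsg3 and 9.77 of Cldn7, each the highest of the 32 tumours, and 60.3 TPM of Tjp1, also the highest. With 5252 TPM of Krt5 and Krt14 it had only 2.90 TPM of Dsg1a and 0.20 of Dsc1, where ΔEcad female 6 with 4396 TPM had 17.8 and 12.8. Dsg3 made 75.1% of the desmogleins of ΔEcad female 8 and Dsc2 80.8% of its desmocollins. The 10 other keratinocyte genes summed to 1737 TPM in ΔEcad female 8 and to 4683 TPM in ΔEcad female 6.

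The genotype was compared in females. Here ΔEcad and Ecad tumours differed in Tjp3 alone, by the threshold of an edgeR adjusted p under 0.05 and a log2 fold change over 1, against 1.16% of all genes called higher and 0.0452% lower. Tjp3 (chromosome 10, 81273207 to 81291581, GRCm38), the ZO-3 scaffold, was at 0.18, 0.66 and 1.59 TPM in Ecad and 0.36, 8.42 and 32.1 TPM in ΔEcad females (lowest, median, highest). The 2 groups overlapped. Tjp3 differed by 3.46 on the log2 scale (SE 0.86, edgeR adjusted p 0.0463). It was called in 16 of 32 fits with a tumour left out. Whether reads of Apba3 on the opposite strand entered the counts of Tjp3 was not tested.

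Most of the other genes pointed the same way without passing. Of the 35, 32 had a log2 fold change above 0, with a median of 3.82 against -0.02 over all genes. An unadjusted edgeR p under 0.05 was found for 29 of them and for 2719 of all 17717 genes. Cxadr had 4.86 (SE 1.43, edgeR adjusted p 0.0660) and Trp63 had 5.22 (SE 1.56, edgeR adjusted p 0.0686). Trp63 was at 0, 0.07 and 1.82 TPM in Ecad and 0, 12.6 and 39.8 TPM in ΔEcad females, which overlap. Jup was at 9.67, 14.6 and 128.3 TPM in Ecad and 15.5, 99.1 and 359.1 TPM in ΔEcad females, and Cldn1 at 0.30, 1.39 and 10.5 against 0.43, 25.9 and 107.0 TPM. Both overlapped. Dsg2, Pkp2 and Tjp1 were the 3 below 0, at -1.15, -0.57 and -0.27. DESeq2 called 20 of the 35 higher, against 6.67% of all genes, and none lower, against 0.559%. The 20 included Tjp3, Cxadr, Pkp3, Trp63, Esrp2, Grhl1, Cldn1 and Epcam.

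The female groups differed in keratin content as well. As log2 CPM, the Krt5/Krt14 level averaged -1.19 ± 5.17 (SD, n = 8) in Ecad and 5.69 ± 7.74 (SD, n = 8) in ΔEcad females. With that level as a covariate no member was called, against 0.0226% of all genes higher and 0.0169% lower, and the median log2 fold change of the 35 genes was 0.14. The size of the fold change was smaller for 34 of 35 genes, Dsg2 being the exception, and 13 changed sign. Since 28 of the 35 genes followed this same level, smaller fold changes were largely fixed by the choice of covariate. The same holds for the covariate values in the comparisons below. What set the groups apart was not tested. Tjp3 had 0.85 (SE 0.62, edgeR adjusted p 0.760), Dsp went from 4.67 to -0.63 and Epcam from 4.61 to -1.74. Cxadr kept 2.77 (SE 0.97, edgeR adjusted p 0.312). Of the 8 Ecad females 6 were under 10 TPM of keratin, against 3 of the 8 ΔEcad females.

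**Figure D5:**
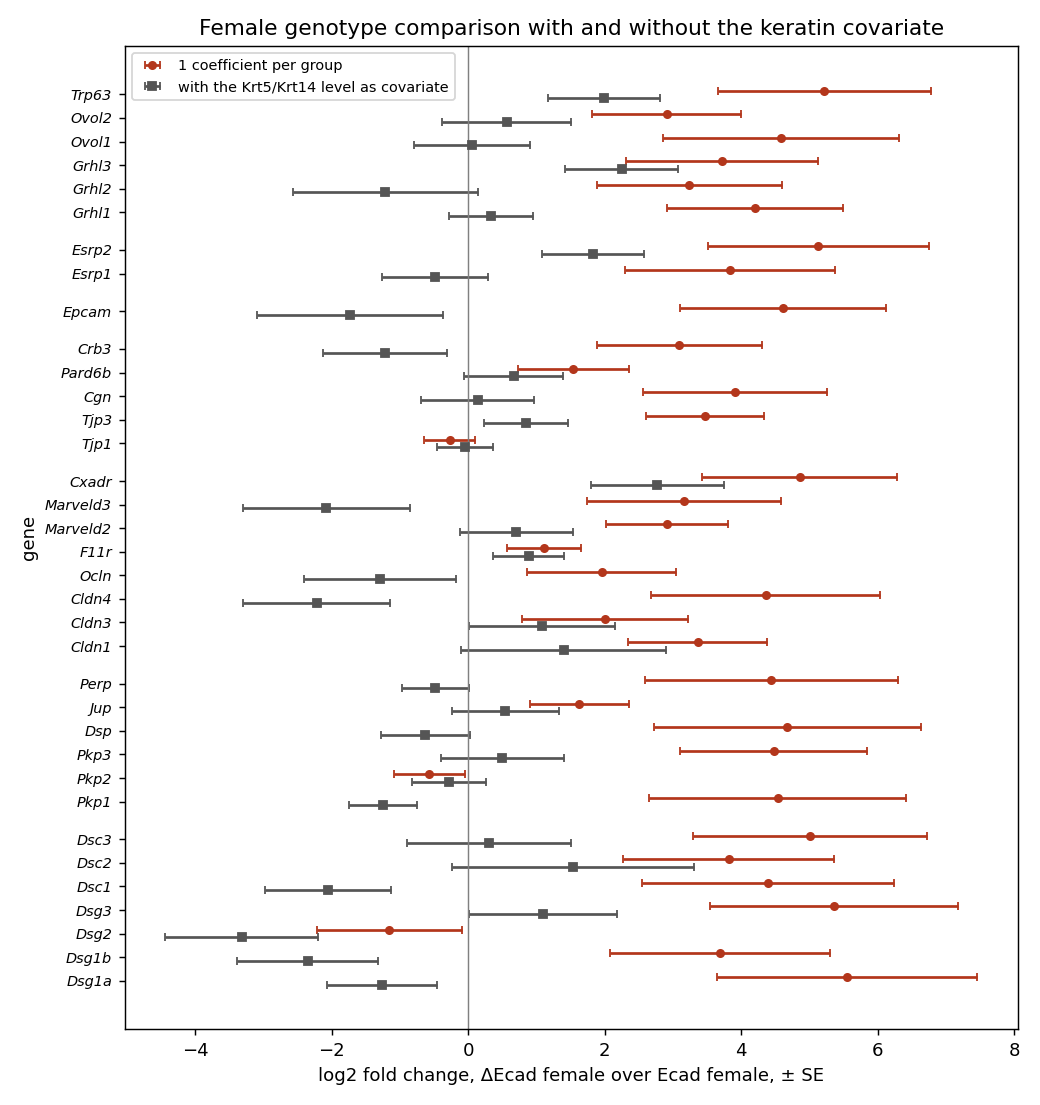
Log2 fold change of ΔEcad over Ecad females with its SE, for the 35 tested genes in rows, from the fit with 1 coefficient per group (red) and with the Krt5/Krt14 level added as a covariate (grey). Red points have a median of 3.82 and grey points of 0.14. Most of these genes follow the covariate, so smaller grey values were largely fixed by that choice.

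In males no member was called, and no gene was (0.0% in each direction). The smallest adjusted p over all genes was 0.280 with edgeR, 1814 genes had an unadjusted edgeR p under 0.05, and DESeq2 called no member, against 0.0508% of all genes higher and 0.0677% lower. The median log2 fold change of the 35 genes was -1.50, 3 were above 0, and 0 had an unadjusted p under 0.05. The smallest p values belonged to Ovol2, at -1.81 (SE 1.05), Trp63, at -2.29 (SE 1.36), and Marveld3, at -2.15 (SE 1.36), with edgeR adjusted p of 0.541 to 0.573. The Krt5/Krt14 level was 7.89 ± 5.61 in Ecad and 4.21 ± 6.18 in ΔEcad males (SD, n = 8 each). With that level as a covariate the median was -0.09. Jup was at 10.5, 85.1 and 231.4 TPM in Ecad and 7.37, 71.9 and 159.2 TPM in ΔEcad males, and Tjp1 at 10.7, 14.5 and 30.7 against 0.85, 16.02 and 38.7 TPM.

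The sexes were compared within each genotype. In Ecad tumours no member passed, against 0.0113% of all genes called higher in females and 0.0395% lower. The median log2 fold change, female over male, was -3.66 over the 35 genes. An unadjusted edgeR p under 0.05 was found for 26 of them and for 2828 of all 17717 genes. Tjp3 had -2.96 (SE 0.85, edgeR adjusted p 0.108), Trp63 -5.15 (SE 1.55, edgeR adjusted p 0.112) and Cxadr -4.59 (SE 1.41, edgeR adjusted p 0.114). DESeq2 called 13 members lower, against 5.26% of all genes, and none higher, against 0.514%. With the covariate the median was 0.34.

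In ΔEcad tumours no member passed, against 0.00564% of all genes higher and 0.0339% lower. DESeq2 called none, against 0.0677% of all genes in each direction. The median log2 fold change, female over male, was 1.90. Of all genes 1561 had an unadjusted edgeR p under 0.05, and so had 2 members, Dsc2 at 3.47 (SE 1.52, edgeR adjusted p 0.540) and Cldn3 at 2.71 (SE 1.26, edgeR adjusted p 0.556). Dsc2 was 86.9 TPM in ΔEcad female 8 and at most 3.59 TPM in the other ΔEcad females. Tjp3 had 1.59 (SE 0.80, edgeR adjusted p 0.575).

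Whether the genotype difference itself differed between the sexes was tested as an interaction. No member passed, and no gene did (0.0% in each direction), with 3131 genes at an unadjusted edgeR p under 0.05. The median over the 35 genes was 5.48 and 29 had an unadjusted p under 0.05. Tjp3 had 4.55 (SE 1.16, edgeR adjusted p 0.0526), Trp63 7.50 (SE 2.05, edgeR adjusted p 0.0592) and Cxadr 6.67 (SE 1.88, edgeR adjusted p 0.0610). DESeq2 called 19 members above 0, against 6.19% of all genes, and none below, against 0.728%. The median was 0.01 with the Krt5/Krt14 level as a covariate. These comparisons share tumours with each other and are not independent.

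Other genes of the same pathways were read from fixed lists of 56 genes, of which 52 were tested. For the slope, 22 followed, against 6.05% of all genes, and 0 were called below 0, against 2.06%. Of 3 other desmosome genes tested, periplakin (Ppl) and envoplakin (Evpl) followed, at 0.46 and 0.41, and Pkp4 did not, at 0.00, with a median of 32.5 TPM in the 12 tumours. Of 27 other tight junction genes 6 followed, Cldn8, Cldn10, Cldn23, Lsr, Ildr1 and Llgl2, and 21 had a median of 1 TPM or more in the 12 tumours, among them Cldn12, at 18.2 TPM. Of 16 other regulators and known targets 14 followed, with Prss8 at 0.61 and Rab25 at 0.49. Cdh1 itself followed, at 0.24 (SE 0.04, edgeR adjusted p 0.000293).

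None of the 6 repressors of the epithelial state was called. Zeb1 and Zeb2 had slopes of -0.04 and -0.05, Snai1 and Snai2 of -0.09 and -0.05, and Twist1 and Twist2 of -0.06 and -0.09. Their medians in the 12 tumours ran from 0.89 TPM for Twist2 to 14.9 TPM for Zeb2. In the female genotype comparison 3 of the 52 genes were called higher, against 1.16% of all genes, and 0 lower, against 0.0452%. With the Krt5/Krt14 level as a covariate 0 of the 52 were called. Without the covariate Cldn8 had 6.42 (edgeR adjusted p 0.0433), Spint1 4.21 (edgeR adjusted p 0.0394) and Lsr 3.41 (edgeR adjusted p 0.0471). In males and in the sex comparisons none was.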

How the data were processed

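RNA of 32 tumours was sequenced by the authors as stranded polyadenylated libraries and mapped with STAR to GRCm38.p5 (mm10) with the GENCODE M13 annotation, as the methods of the study state. FastQC 0.11.5 is named in the submitters' processing notes. The authors deposited raw counts per gene, whole numbers, and a table of TPM. The strand setting of the counting is not given in the sources used here. Batch correction is described only where applicable. Symbols and coordinates came from GENCODE M21 (GRCm38), which named 50376 of 50600 identifiers.

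The deposited counts entered the quasi-likelihood F test of edgeR 4.0.16, which is two-sided (TMM factors, robust estimation, filterByExpr by group), with a coefficient per group over all 32 tumours. Calls needed a Benjamini-Hochberg adjusted p under 0.05 and, for group comparisons, an absolute log2 fold change over 1. The slope test had no fold threshold. The SE came from the test statistic. Levels are deposited TPM, with a prior count of 1 for log2 CPM. DESeq2 1.42.0, limma 3.58.1, other size factors and filters and each tumour left out were alternatives. The scripts were tested on simulated data. Fits ran in R 4.3.3. Tables and figures were made in Python 3.11.15 with pandas 2.3.3, numpy 2.4.6 and matplotlib 3.10.9.

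Members, marker lists and pathway lists were chosen with earlier results of these data known. Each gene is given at least by a range or a count. Full statistics were given for members called, otherwise for the 3 with the smallest p, and for the slope for the steepest and flattest of each role. Individual tumours, Cdh1 with the covariate, and further genes were named after their values were seen. Libraries held 24036333 to 63923086 counts. The limit of 3 counts set for a reading of 0 covers only counting error, as no molecular identifiers were used. No pair of libraries was a duplicate (highest correlation 0.963). Values of some other pathway genes are not reported here.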

Additional observations from a re-analysis of the deposited data

Results flagged for a closer look

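Of 140 sets of 8 tumours (35 genes in 4 groups), 11 had a tumour far from the other 7 in log2 CPM. Chance flags about 1 in 20. Ecad male 7, the only Ecad male with low Krt5 and Krt14, was the low one in 7 of the 11. Its log2 CPM was -5.19 for Dsc3, Cldn4 and Epcam, each with 0 counts, -4.15 for Pkp1, -3.13 for Perp, -2.81 for Dsp and 3.12 for F11r. Ecad female 3, the tumour with secretory markers, was low in Pkp2 at 1.49 and high in Cldn3 at 1.72. ΔEcad male 1 was low in Tjp1 at 2.28, and ΔEcad female 5 was low in Pard6b at -2.53. Their causes were not tested.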

How the results depend on the processing

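The number of genes that followed Krt5/Krt14 was 28 and lay between 24 and 33 under the other settings, except in the 12 tumours with low Krt5/Krt14, where it was 0 among fewer genes and tumours. There the slopes of Cldn4 (-0.48), Epcam (-0.32) and Esrp2 (-0.42) turned negative without being called. Summed Krt5 and Krt14 was 0 in 5 of these 12 tumours and at most 2.70 TPM. The keratin level there rests on few counts, so this fit cannot decide whether genes follow it. With a tumour left out 26 to 30 genes followed, and the choice to test the 20 other tumours alone (24) was made after seeing the data. The 5 genes kept at low keratin were also 5 at 1 and 100 TPM.

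In females, 1 gene called became 20 with DESeq2, 2 with no low-count filter and 0 with limma voom, limma on log2(TPM + 1) or log2(TPM + 0.1), the stricter filter, either covariate, only the 16 tumours compared, or without the 4 tumours that stood apart (chosen after seeing the data). It was 0 to 6 with a tumour left out, with 0 without any 1 of Ecad male 1, 2, 4 or 5, Ecad female 1, 2, 3, 4, 6, 7 or 8, ΔEcad male 2 or 5, or ΔEcad female 1, 2 or 7, and with 6 without ΔEcad female 4 or 5, 5 without Ecad female 5, 3 without ΔEcad female 3 and 2 without Ecad male 7. DESeq2 called 13 members in the Ecad sex comparison, not 0, and none in the male or ΔEcad sex comparison. Leaving out a tumour gave 0 in each of these. For the interaction, DESeq2 called 19, RLE and upper-quartile factors 1 each, no filter 2, and leave-one-out fits 0 to 16, with 16 without ΔEcad male 3, 7 without Ecad male 7 or ΔEcad female 3, 6 without Ecad female 5 or ΔEcad female 4, 5 without ΔEcad female 5, 2 without Ecad male 3, and 1 without Ecad male 8 or ΔEcad female 8. The causes of these differences were not tested.

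Tumour numbers did not pair the tumours (mean correlations -0.10 to 0.07 per number). With the number as a replicate block the female count fell to 0 and 29 genes followed Krt5/Krt14. The block left the other counts at 0.

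RNA depth limits genes near 0 counts, and bulk tissue limits all of them. TMM left the median of all genes at 0.11 in the male comparison and -0.16 in the interaction. Without that choice (upper-quartile factors) it was 0.05 and -0.05.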
